A study of Homo sapiens with 6 samples.

Results

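The epithelial-mesenchymal transition (EMT) genes described here are 10 genes chosen by symbol, namely CDH1, CDH2, VIM, FN1, ESRP1, ZEB1, ZEB2, SNAI1, SNAI2 and TWIST1. They are 10 of the 23180 gene symbols that carry counts in the RNA-Seq table of A549, an established human lung adenocarcinoma cell line. The study compared 3 samples transfected with siControl, a control siRNA, and 3 samples transfected with siKMT9α#1, an siRNA against the α subunit of the histone methyltransferase KMT9 (gene N6AMT1), all wild type by genotype, at passage 11 and harvested 3 days after transfection. The RNA-Seq rests on 1 cell line and on 1 siRNA per group, so that a change cannot be told apart from an effect of the siRNA sequence. Where a symbol has several transcripts, the one with the most counts in the 6 samples together stands for the gene.

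In an epithelium, E-cadherin (CDH1) holds neighbouring cells together, and the splicing regulator ESRP1 maintains epithelial transcript isoforms. During the transition, transcription factors of the ZEB, SNAI and TWIST families bind E-box elements at epithelial promoters and repress them, while N-cadherin (CDH2), the intermediate filament protein vimentin (VIM) and the matrix protein fibronectin (FN1) gain ground. Carcinoma cell lines often carry genes of both programmes at the same time.

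The 6 samples had 13740100.5 to 19832398.5 counts in total, and KMT9α mRNA (N6AMT1) averaged 10.8 ± 0.62 CPM (counts per 1000000 counts, SD, n = 3) with siControl and 3.15 ± 0.25 CPM with siKMT9α. CPM values are scaled by edgeR's TMM factors and log2 fold changes are siKMT9α against siControl. The edgeR quasi-likelihood test was fitted on 13877 genes, of which 75.6% were called at an adjusted p under 0.05, with 37.1% up and 38.5% down after siKMT9α. The labels call the samples biological replicates. The p-values set the difference between groups against the spread between samples of a group, which the fit moderates over all genes tested. In 77.0% of the genes tested the groups did not overlap. Scaling by library size only moved the median change of the genes tested by -0.11 on the log2 scale. The epithelial markers KRT8, KRT18, KRT19 and EPCAM, 4 in all, summed to 3210 to 3573 CPM with siControl and to 1715 to 1808 CPM with siKMT9α, and each of the 4 was lower. EPCAM had 3.85 CPM with siControl. The 6 fibroblast markers summed to 6.92 to 8.71 and to 3.22 to 3.92 CPM with COL1A2 at 0, the 3 leukocyte markers to at most 0.30 CPM with CD3E at 0, and the 3 endothelial markers to at most 0.80 CPM. In bulk RNA, fewer cells that express a gene and less RNA per cell cannot be told apart. The part of the markers in the results below was not tested.

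Of the 9 EMT genes that passed the filter on low counts, 7 were higher and 1 was lower with siKMT9α at an adjusted p under 0.05, and CDH2 did not pass. Called in either direction were thus 8 of 9, near the 75.6% of all genes, and the groups of 7 of the 9 stood apart, near 77.0%. The 7 higher genes stand beside 37.1% and the 1 lower gene beside 38.5% of all genes tested. SNAI2 passed the filter through its siKMT9α samples, and without it 6 were higher, 1 lower and 1 not called. At the study's own threshold (P under 1e-08 with an absolute log2 change over 0.26), ZEB1, ZEB2 and FN1 passed, 3 of 9, beside 24.2% of all genes tested. ESRP1 was too low to be tested. The groups did not overlap for 8 of the 10 genes, and did for CDH2 and SNAI1. In a two-sided exact permutation test of one gene, 0.1 is the smallest p that 3 samples against 3 allow.

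**Figure D1:**
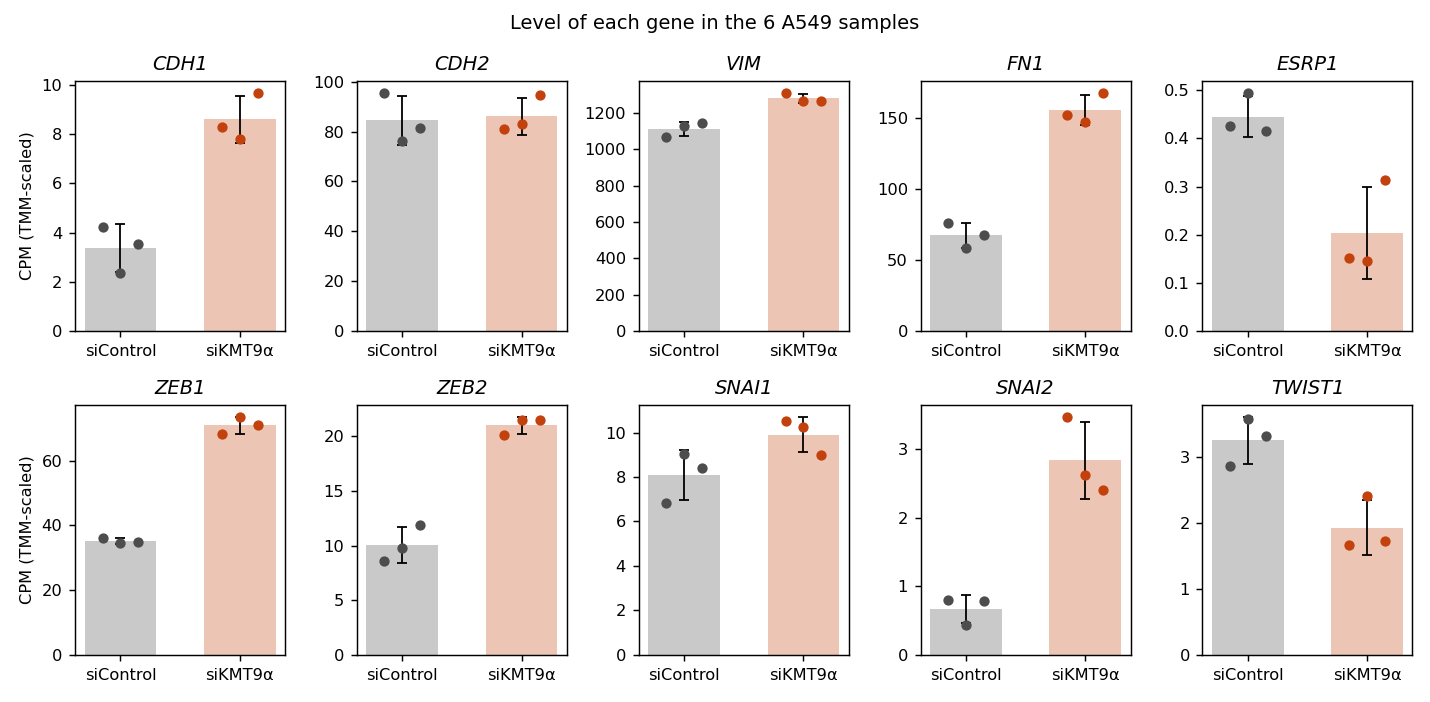
CPM (scaled by TMM, linear axes from 0) of the 10 genes in the 3 siControl and 3 siKMT9α samples, with a panel per gene. Points are samples, bars are means and error bars are SD (n = 3). CDH1, FN1, ZEB1, ZEB2 and SNAI2 show at least 2.01-fold higher fitted levels with siKMT9α, whereas the points of CDH2 and SNAI1 overlap.

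The promoter windows shown are those of ZEB1, ZEB2 and FN1, the 3 genes past the study's threshold. ZEB and SNAI proteins bind the E-box CACCTG, which reads CAGGTG on the other strand. The windows come from RefSeq on GRCh38.p14, run from 250 bases before to 50 bases after an annotated start, and are written 5′ to 3′ on the gene's strand with matches to either form in capitals. RefSeq windows were matched for 5 of the 10 genes, ZEB1, ZEB2, FN1, VIM and CDH2, and not for CDH1. The window of ZEB1 lies at chr10:31318966-31319265 on the plus strand, that of ZEB2 at chr2:144520070-144520369 on the minus strand and that of FN1 at chr2:215436019-215436318 on the minus strand.
ZEB1: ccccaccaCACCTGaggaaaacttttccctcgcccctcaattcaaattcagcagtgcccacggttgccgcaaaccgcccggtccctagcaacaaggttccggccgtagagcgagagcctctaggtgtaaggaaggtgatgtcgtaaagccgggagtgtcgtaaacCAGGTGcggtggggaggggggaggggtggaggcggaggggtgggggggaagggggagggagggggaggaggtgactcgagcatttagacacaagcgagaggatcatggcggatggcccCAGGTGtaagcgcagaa
ZEB2: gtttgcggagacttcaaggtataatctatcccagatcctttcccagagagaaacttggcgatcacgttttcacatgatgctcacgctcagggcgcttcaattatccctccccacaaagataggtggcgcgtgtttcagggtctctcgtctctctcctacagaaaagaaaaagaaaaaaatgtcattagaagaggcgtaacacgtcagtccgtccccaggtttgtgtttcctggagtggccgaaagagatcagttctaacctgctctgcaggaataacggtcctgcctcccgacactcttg
FN1: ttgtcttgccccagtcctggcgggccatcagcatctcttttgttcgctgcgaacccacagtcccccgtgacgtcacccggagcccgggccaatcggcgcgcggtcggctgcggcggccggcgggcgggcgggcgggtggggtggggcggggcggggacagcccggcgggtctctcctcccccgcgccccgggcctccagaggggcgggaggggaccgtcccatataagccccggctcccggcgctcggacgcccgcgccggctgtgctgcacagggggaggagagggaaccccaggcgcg
The ZEB1 window shown has 3 matches, which begin 242 and 85 bases before and 33 bases after its start. It is 1 of 7 ZEB1 windows, of which 2 hold a match, and was picked for having the most. The windows of ZEB2, FN1, VIM and CDH2 hold 0 matches. Of all 35116 promoter windows of this length, 20.6% hold at least 1. A match is a string of letters and was not tested for binding.

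CDH1 was low in these A549 cells and higher with siKMT9α. E-cadherin is the main adhesion molecule of epithelial adherens junctions, and its loss is the usual mark of the transition. Transcript NM_004360 spans chromosome 16 of hg19 from 68771195 to 68869444 and had 80, 38.5 and 68 counts with siControl and 110.5, 107 and 185 counts with siKMT9α, each in the order of the replicate numbers, as below. These counts correspond to 4.25, 2.35 and 3.54 CPM with siControl and to 8.31, 7.82 and 9.68 CPM with siKMT9α. Every siKMT9α sample lay above every siControl sample, although CDH1 remained under 10 CPM in all 6. The log2 fold change was 1.34 (SE 0.16, edgeR adjusted p = 3.11e-07), or 2.54-fold.

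CDH2 did not pass the test. N-cadherin, the cadherin of neural and mesenchymal cells, is encoded by NM_001792 on chromosome 18 from 25530930 to 25757445. The siControl samples had 95.5, 76.4 and 81.6 CPM and the siKMT9α samples 80.9, 83.0 and 94.6 CPM, so that the groups lay within one another's range. The log2 fold change was 0.03 (95% interval -0.12 to 0.18, edgeR adjusted p = 0.703). Without siControl replicate 1, its highest control sample, it was 0.15 (edgeR adjusted p = 0.039).

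Per kilobase of transcript, CDH2 exceeded CDH1 in all 6 samples. The ratio of CDH2 to CDH1 was 24.8, 35.9 and 25.5 with siControl and 10.7, 11.7 and 10.8 with siKMT9α. The ratio of VIM to CDH1 was 567.1 to 1087 with siControl and 295.7 to 366.6 with siKMT9α. Both ratios were lower in every siKMT9α sample than in every siControl sample, and in both CDH1 was the member with the larger log2 fold change. The ratio of VIM to CDH2 ranged from 22.9 to 30.3 with siControl and from 27.4 to 33.2 with siKMT9α, and these ranges overlap.

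VIM was by far the most abundant of the 10 genes and moved little. Vimentin forms the intermediate filaments of mesenchymal cells. Transcript NM_003380 on chromosome 10, from 17270258 to 17279592, had 1066, 1128 and 1143 CPM with siControl and 1310, 1269 and 1266 CPM with siKMT9α, without overlap. Its log2 fold change was 0.20 (SE 0.05, edgeR adjusted p = 0.000788), or 1.15-fold. The call was lost with the library size alone (0.10, edgeR adjusted p = 0.069). With offsets for GC content and length its log2 fold change was 0.34.

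FN1 rose 2.30-fold. Fibronectin is a matrix glycoprotein that integrins bind and that mesenchymal cells deposit. NM_212482, on chromosome 2 from 216225179 to 216300791, had 76.4, 58.8 and 67.9 CPM with siControl and 152.5, 147.3 and 167.7 CPM with siKMT9α. The lowest siKMT9α sample was thus well above the highest siControl sample. The log2 fold change was 1.20 (SE 0.07, edgeR adjusted p = 1.42e-11), and 0.85 when offsets for GC content and length were fitted. The table lists 6 transcripts of FN1, from 2358 to 8708 bases long. In a fit of every transcript, in which 76.3% had an adjusted p under 0.05, their log2 fold changes were 1.18 to 1.20. The shortest, NM_054034, which ends within the gene and covers its 5′ part, was at 1.19 (SE 0.10). The counts of these transcripts share exons, so that the 6 values are not independent.

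Levels per length put the 10 genes in an order that differed between the groups. With siControl, VIM had 525.4 ± 19.2 CPM per kilobase (SD, n = 3 here and below), CDH2 19.5 ± 2.28, FN1 7.77 ± 1.01, ZEB1 5.89 ± 0.15, SNAI1 4.76 ± 0.66, TWIST1 1.96 ± 0.22, ZEB2 1.09 ± 0.18, CDH1 0.71 ± 0.20, SNAI2 0.32 ± 0.10 and ESRP1 0.12 ± 0.01. No 2 neighbours in this order had overlapping samples. With siKMT9α, VIM was again highest at 605.4 ± 11.7 CPM per kilobase, and CDH2 at 19.9 ± 1.71 overlapped FN1 at 17.9 ± 1.22. ZEB1 at 11.9 ± 0.45, SNAI1 at 5.83 ± 0.47 and ZEB2 at 2.28 ± 0.09 followed. CDH1 at 1.80 ± 0.20 overlapped SNAI2 at 1.35 ± 0.27, which overlapped TWIST1 at 1.16 ± 0.25. ESRP1 was again lowest at 0.05 ± 0.03.

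**Figure D2:**
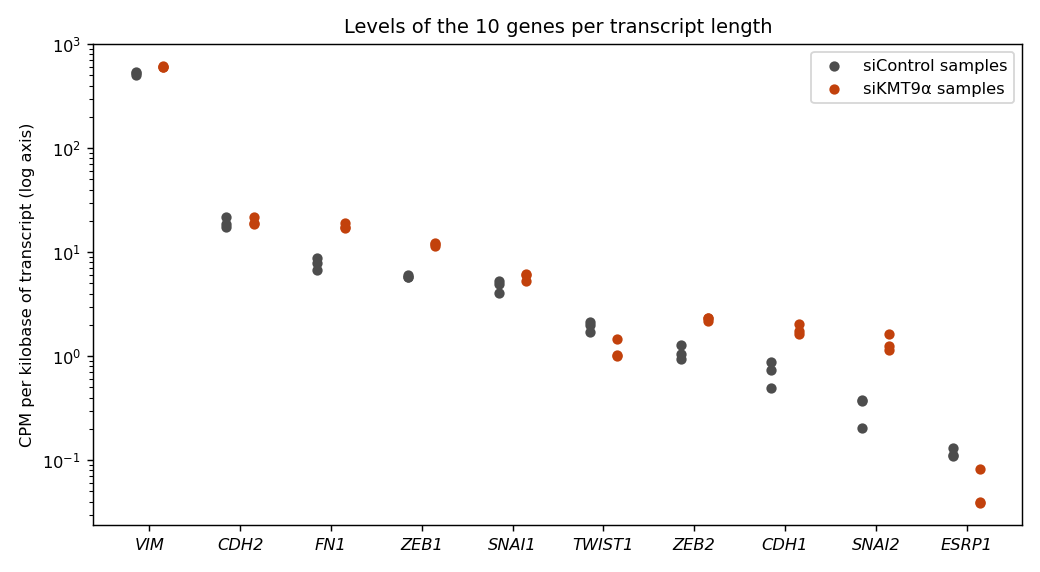
CPM per kilobase of transcript (log axis) of the 10 genes, ordered by their mean in siControl, with each point a sample of siControl or siKMT9α. VIM lies at 503.6 to 619.0 and ESRP1 at 0.04 to 0.13, and the mean of TWIST1 lies above those of ZEB2, CDH1 and SNAI2 with siControl and below them with siKMT9α, where its samples overlap those of SNAI2.

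Both ZEB genes rose about 2-fold. ZEB1 and ZEB2 are zinc finger repressors of CDH1, and their mRNAs are classic targets of the miR-200 family. ZEB1, represented by NM_001174096 on chromosome 10 from 31608101 to 31818742, had 36.2, 34.6 and 34.8 CPM with siControl and 68.2, 73.5 and 70.9 CPM with siKMT9α. Every siKMT9α sample lay above every siControl sample, with an SD of 0.89 CPM among the latter. The log2 fold change was 1.01 (SE 0.06, edgeR adjusted p = 3.95e-12). ZEB2, represented by NM_014795 on chromosome 2 from 145141942 to 145277958, had 8.60, 9.76 and 11.9 CPM with siControl and 20.1, 21.5 and 21.4 CPM with siKMT9α. The siKMT9α samples were again all higher, and the log2 fold change was 1.06 (SE 0.10, edgeR adjusted p = 1.29e-08). With GC and length offsets the log2 fold changes were 0.80 for ZEB1 and 0.73 for ZEB2. Per kilobase, ZEB1 exceeded ZEB2 by 5.50 ± 0.99 times with siControl and by 5.21 ± 0.09 times with siKMT9α.

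The listed transcripts of ZEB2 did not all move the same way. The 6 listed transcripts of ZEB1 had log2 fold changes of 1.01 to 1.02 in the fit of every transcript. Their counts share exons, with 5059.5 to 5175.5 counts each over the 6 samples. The 6 values are therefore not independent and do not tell the transcripts apart. Of the 3 listed transcripts of ZEB2, NM_014795 and NM_001171653 were higher at 1.06 and 1.07. They too share counts, with 1517 and 1510.5 over the 6 samples. The non-coding NR_033258, which covers only the 5′ end of the gene from 145268952 to 145277958, had 33.5, 23 and 35 counts with siControl and 9, 15 and 18 counts with siKMT9α. It was lower, at -0.89 (SE 0.25, edgeR adjusted p = 0.00306). Its span overlaps the antisense gene ZEB2-AS1, which had at most 2.5 counts in any sample. The antisense neighbour of ZEB1, ZEB1-AS1, named after its values were seen, was lower, at 9.18 ± 0.71 CPM with siControl and 5.06 ± 0.31 CPM with siKMT9α (SD, n = 3), with a log2 fold change of -0.86 (SE 0.12, edgeR adjusted p = 1.87e-06). The ZEB1-AS1 transcript that was counted lies outside the span of the ZEB1 transcript, although the ZEB1-AS1 gene of the GENCODE annotation overlaps it. Whether the counting used the strand is not given in the sources used here. Reads of ZEB2 and ZEB2-AS1 therefore cannot be separated where they overlap.

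The SNAI and TWIST factors did not move together. Snail (SNAI1), a short-lived repressor often induced early in the transition, was at 6.85, 9.02 and 8.42 CPM with siControl and at 10.5, 10.2 and 8.997 CPM with siKMT9α. The lowest siKMT9α sample fell below the highest siControl sample. SNAI1 (NM_005985, chromosome 20 from 48599513 to 48605420) had a log2 fold change of 0.29 (SE 0.12, edgeR adjusted p = 0.034). This call was lost in DESeq2 (adjusted p = 0.063) and with the library size alone (0.18, edgeR adjusted p = 0.172). It was also lost without siControl replicate 1 (0.19), siKMT9α replicate 1 (0.25) or siKMT9α replicate 2 (0.26), and with GC and length offsets the log2 fold change was 0.52.

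Slug (SNAI2) had the largest fold change of the 9 genes, from very few reads. SNAI2, a repressor related to Snail, is encoded by NM_003068 on chromosome 8 from 49830239 to 49833999. It had 15, 7 and 15 counts with siControl and 46.5, 35.5 and 45.5 counts with siKMT9α, or 0.80, 0.43 and 0.78 CPM against 3.48, 2.63 and 2.41 CPM. The groups stood apart, with a log2 fold change of 2.02 (SE 0.25, edgeR adjusted p = 6.77e-07), or 4.06-fold. SNAI2 entered the test through its siKMT9α samples, since siControl replicate 2 was under the filter's 0.59 CPM, so a difference was built into its being tested. With at least 10 counts required in every sample it was not tested.

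TWIST1 was the member that fell. TWIST1 is a basic helix-loop-helix factor of mesoderm that binds E-boxes. NM_000474, on chromosome 7 from 19155091 to 19157295, had 54, 58 and 64 counts with siControl and 22.5, 33 and 33 counts with siKMT9α. In CPM it was at 2.87, 3.58 and 3.33 against 1.66, 2.41 and 1.73, without overlap. Its log2 fold change was -0.76 (SE 0.19, edgeR adjusted p = 0.00141), and -0.53 with GC and length offsets.

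ESRP1 was hardly detected. It had 7.5, 7.5 and 8.5 counts with siControl and 2, 2 and 6 counts with siKMT9α (NM_017697, chromosome 8 from 95653364 to 95719694). These are 0.42, 0.49 and 0.42 CPM against 0.15, 0.15 and 0.31 CPM, so that the siKMT9α samples were all lower, by a few reads. The filter on low counts removed it. In the fit without a filter the log2 fold change was -0.99 (SE 0.58, edgeR adjusted p = 0.13), a difference that was not detectable at this depth. ESRP2, its paralog and a member of a list below, had a log2 fold change of 0.35 (SE 0.14, edgeR adjusted p = 0.027). That call was lost in DESeq2 (adjusted p = 0.093), with the library size alone (0.25, edgeR adjusted p = 0.108) and without siControl replicate 2 (0.30), siKMT9α replicate 1 (0.36) or siKMT9α replicate 2 (0.35).

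**Figure D3:**
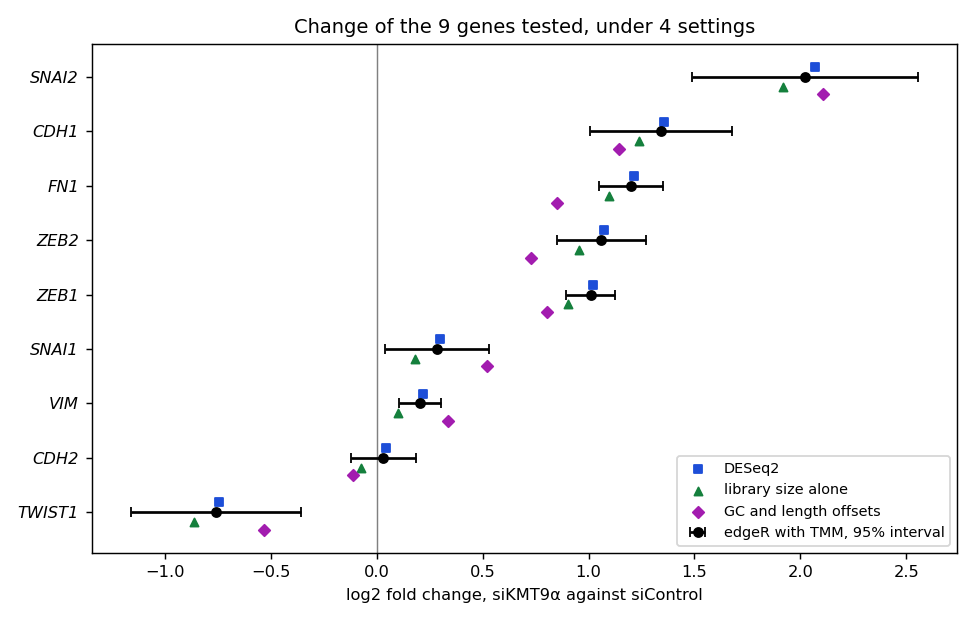
Log2 fold change of siKMT9α against siControl for the 9 genes tested, with black points and 95% intervals from edgeR with TMM and coloured symbols from DESeq2, from the library size alone and from GC and length offsets. From SNAI2 at 2.02 to TWIST1 at -0.76, every symbol of a gene lies on the same side of 0 except those of CDH2, which straddle it.

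The 10 transcripts differ in composition and length, and offsets for GC content and length moved their values. ZEB1 and ZEB2 have 38.9% and 39.0% GC, SNAI1 58.4% and TWIST1 57.2%, and ZEB2 and FN1 are the longest at 9224 and 8708 bases. Over all genes with a known GC content, the median log2 fold change was 0.01, 0.03 and -0.09 in 3 equal bins from the GC-poorest to the GC-richest, and -0.03, 0.00 and 0.03 with the offsets. With the offsets, ZEB1, ZEB2, FN1, CDH1 and TWIST1 came closer to 0, and SNAI1, SNAI2 and VIM moved away from it. SNAI2 went from 2.02 to 2.11, and CDH2 changed sign, from 0.03 to -0.11. CDH1 then had a log2 fold change of 1.14, and 8 of the 9 genes still had an adjusted p under 0.05.

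Of the 9 other cadherins listed, 4 were tested and called higher, beside 37.1% of all genes, but 1 of them, CDH6, passed the filter through its siKMT9α samples. The other 3 had a median log2 fold change of 0.96, beside -0.01 for all genes tested. Of the 5 that were too low to test, CDH3, CDH5, CDH13 and CDH15 had fewer counts in every siKMT9α sample than in any siControl sample. CDH11 overlapped. CDH3 had 8, 9 and 9 counts with siControl and 0, 1 and 3.5 with siKMT9α. CDH13 had only 1 count in each siControl sample and 0 with siKMT9α. How often untested genes in general stood apart was not counted. In the fit without a filter 7 of the 9 cadherins were called, with CDH3, CDH5 and CDH15 lower and the 4 above higher. In that fit 11148 of all 18751 genes were called, 5541 higher and 5607 lower. CDH4 (R-cadherin, close kin of N-cadherin) was at 2.76, 2.84 and 3.07 CPM with siControl and at 24.2, 25.1 and 26.1 CPM with siKMT9α. This was a log2 fold change of 3.12 (SE 0.10, edgeR adjusted p = 2.33e-15), against 0.03 for CDH2. CDH17, the liver-intestine cadherin, rose from 8.39 ± 0.89 to 16.3 ± 1.78 CPM (log2 fold change 0.96), and CDH24 from 4.799 ± 0.79 to 7.35 ± 1.04 CPM (0.65, SD, n = 3 each). CDH6 had 0.34 ± 0.11 CPM with siControl and 1.42 ± 0.73 CPM with siKMT9α. In the opposite direction, CDH5 (VE-cadherin, of endothelium) had 12, 10 and 8.5 counts with siControl and 1 count in each siKMT9α sample. CDH15 (M-cadherin, of muscle) had 6.5, 10 and 8.5 counts with siControl and 0 with siKMT9α. CDH5 and CDH15 were picked after their counts were seen.

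Of 9 listed genes of the adherens junction other than cadherins, all tested, 5 were higher, 3 lower and 1 not called, with a median log2 fold change of 0.16. The 8 called stand beside 75.6% of all genes tested, 37.1% higher and 38.5% lower. The catenin CTNND1 (p120), which stabilises cadherins at the membrane, fell from 311.9 ± 16.5 to 149.5 ± 4.04 CPM (log2 fold change -1.06, SE 0.05, edgeR adjusted p = 4.26e-13). JUP, the plakoglobin of adherens junctions and desmosomes, fell from 183.2 ± 6.81 to 73.7 ± 2.09 CPM (-1.31, SE 0.05). MLLT4 (afadin, which ties nectins to actin) rose from 18.8 ± 1.22 to 43.0 ± 1.81 CPM (1.19) and PVRL2 (nectin-2) from 39.4 ± 1.39 to 81.3 ± 1.90 CPM (1.04, SD, n = 3 each). The groups of these 4 genes did not overlap. PVRL1 (nectin-1), the 1 gene not called, had a log2 fold change of -0.08 (edgeR adjusted p = 0.424).

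Of 14 listed epithelial junction and surface genes 11 were tested, 3 of them higher, 7 lower and 1 not called, beside 37.1% higher and 38.5% lower of all genes. EPCAM, MARVELD3 and SPINT1 passed the filter through their siControl samples. The other 8 were 3 higher, 4 lower and 1 not called, with a median log2 fold change of -0.09. Of the 3 not tested, CLDN7 was lower without overlap, at 9.5, 6.5 and 5.5 counts with siControl and 1.5, 2.5 and 2 with siKMT9α. EPCAM, an epithelial adhesion molecule, had 4.25, 3.46 and 3.85 CPM with siControl and 0.76, 0.44 and 0.52 CPM with siKMT9α. Its log2 fold change was -2.76 (SE 0.24, edgeR adjusted p = 2.83e-09), the opposite direction to CDH1. CLDN3, a tight junction claudin, fell from 6.55 ± 0.48 to 1.10 ± 0.23 CPM (-2.53). CLDN1 rose from 166.6 ± 13.1 to 658.6 ± 25.0 CPM (1.98) and OCLN (occludin) from 41.7 ± 3.69 to 65.4 ± 4.25 CPM (0.65, SD, n = 3 each).

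Among epithelial transcription and splicing factors, 8 of 11 were tested, 5 higher, 1 lower and 2 not called, with a median log2 fold change of 0.27. The 6 called, 75.0% of those tested, stand beside 75.6% of all genes, with 37.1% higher and 38.5% lower. Of the 3 not tested, OVOL2 was lower without overlap, at 8, 10 and 10 counts with siControl and 0, 0 and 1 with siKMT9α. RBM47, an RNA-binding protein of epithelia, rose from 15.9 ± 1.14 to 45.1 ± 4.15 CPM (1.51) and the zinc finger factor KLF4 from 27.1 ± 0.27 to 66.2 ± 6.15 CPM (1.29). GRHL1, a grainyhead-like factor, fell from 3.60 ± 0.42 to 1.62 ± 0.11 CPM (-1.15, SD, n = 3 each). ELF3, an epithelial ETS factor, had the smallest log2 fold change of the genes called higher, 0.18, and its call was lost with the library size alone (edgeR adjusted p = 0.132).

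Of 16 listed mesenchymal matrix and cytoskeleton genes 11 were tested, 4 higher, 5 lower and 2 not called, with a median log2 fold change of -0.17. The 9 called, 81.8% of those tested, are near the 75.6% of all genes, with 37.1% higher and 38.5% lower. Of the 5 not tested, COL3A1 was higher without overlap in CPM, from at most 4 counts in a sample. It had 0.11, 0.12 and 0.10 CPM with siControl and 0.23, 0.15 and 0.21 CPM with siKMT9α. The other 4 overlapped. LOXL2, which crosslinks collagen, was at 79.7, 68.4 and 74.6 CPM with siControl and at 299.9, 284.3 and 305.9 CPM with siKMT9α, a log2 fold change of 2.00 (SE 0.06, edgeR adjusted p = 2.71e-16). The fibrillar collagen COL5A1 rose from 29.4 ± 2.17 to 99.5 ± 8.72 CPM (1.76). TAGLN (transgelin, an actin-binding protein of smooth muscle) fell from 46.8 ± 0.28 to 10.4 ± 0.35 CPM (-2.17) and LOX, the lysyl oxidase related to LOXL2, from 10.03 ± 0.61 to 4.15 ± 0.46 CPM (-1.26, SD, n = 3 each). FN1 thus had the direction of LOXL2 and COL5A1 and not that of TAGLN and LOX.

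Of the other EMT transcription factors, 8 of 12 were tested, 5 higher, 0 lower and 3 not called at an edgeR adjusted p under 0.05, beside 37.1% higher and 38.5% lower of all genes. FOXC2 passed the filter through its siKMT9α samples, and without it 4 were higher and 3 not called, with a median log2 fold change of 0.33. Of the 4 not tested, SNAI3 and KLF8 had fewer counts in every siKMT9α sample than in any siControl sample. Both were near the floor. SNAI3 had 5, 5.5 and 7.5 counts with siControl and 2, 1.5 and 4.5 with siKMT9α. KLF8 had 6, 9 and 9 counts with siControl and 3 in each siKMT9α sample. HMGA2, a chromatin protein that binds AT-rich DNA, had 117.8, 117.8 and 115.8 CPM with siControl and 318.8, 317.6 and 299.4 CPM with siKMT9α (log2 fold change 1.41, SE 0.05, edgeR adjusted p = 2.84e-15). TWIST2, the paralog of TWIST1, rose from 3.36 ± 0.09 to 6.70 ± 0.37 CPM (0.99, SE 0.13), whereas TWIST1 fell. SOX4 had a log2 fold change of 0.94 and FOXC1, a forkhead factor, of 0.33. The 5 miR-200 family hairpin genes had at most 1 count in any sample, and mature miRNAs were not measured.

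**Figure D4:**
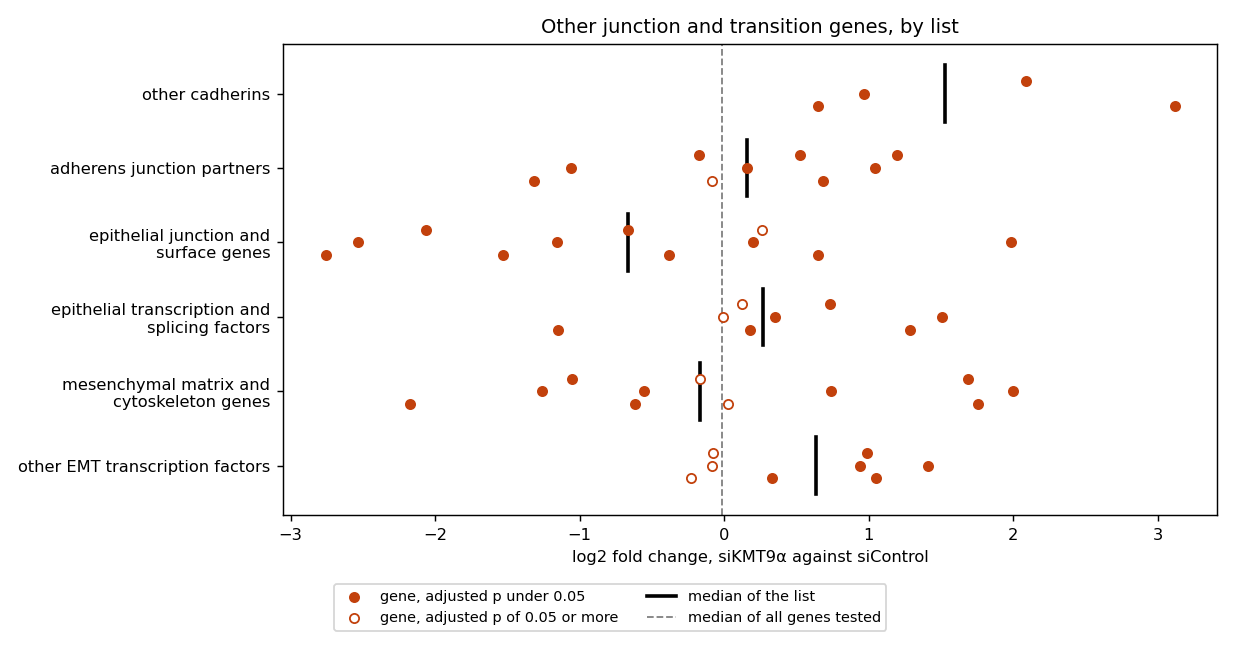
Log2 fold change of siKMT9α against siControl for every tested gene of 6 lists of junction and transition genes, filled where the edgeR adjusted p was under 0.05, with the median of each list's tested genes, those that passed the filter through 1 group included, as a bar and the median of all genes tested (-0.01) as a dashed line. Epithelial junction genes reach from -2.76 (EPCAM) to 1.98 (CLDN1) and mesenchymal genes from -2.17 (TAGLN) to 2.00 (LOXL2).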

How the data were processed

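Per the labels and the study's methods, RNA of A549 cells was sequenced, reads were aligned to hg19 with STAR and counted per RefSeq transcript with HOMER's analyzeRepeats. The authors deposited estimated counts per transcript and sample, not normalized, in steps of 0.5. The deposited table also holds a transcript length, which served for levels per kilobase, and the authors' own edgeR comparison (a linear fold change, or ratio, and the raw and adjusted p-value), which was not used. The authors' counting options are not given in the sources used here. Of 38767 rows, 1182 had no symbol or counts and were left out. Each symbol kept its transcript with the largest summed count.

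After rounding to whole numbers, the estimated counts were fitted with edgeR 4.0.16 in R 4.3.3 (TMM, filterByExpr, quasi-likelihood F test, group as the only term, two-sided), with Benjamini-Hochberg adjustment over 13877 genes. SE is the size of the log2 fold change divided by the square root of F. The biological coefficient of variation was 4.47%. The script was tested on simulated data in which few genes were set to change, as many up as down. In the A549 samples 75.6% of the genes tested were called, so the simulation does not check the fit under such broad change. Replicates of a group differed by more than sampling noise (chi-square per gene 1.36 to 5.25, against 106.5 to 140.3 between groups).

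The members and gene lists were chosen with earlier results of these data known. Named genes are the 10 members, N6AMT1 and, from each list, up to 2 highest and 2 lowest log2 fold changes with an adjusted p under 0.05 and a mean of at least 1 CPM; ESRP2, ZEB1-AS1 and the genes named for a filter, a missed call or an untested level were added after their values were seen. Alternatives were DESeq2 1.42.0, RLE factors, the library size alone, the likelihood-ratio test, 2 other filters, the longest transcript, a replicate block and each sample left out. Offsets for GC content (GENCODE transcripts of GRCh37 closest in length, known for 97.0% of symbols) and length, a fit of every transcript, and counts without genes that passed the filter through 1 group (all its samples at 0.592 CPM or more, a sample of the other group below) were added after seeing the data.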

Additional observations from a re-analysis of the deposited data

How the results depend on the processing

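Of the 9 genes tested, CDH1, FN1, ZEB1, ZEB2 and TWIST1 kept their direction and an adjusted p under 0.05 under all alternatives, and SNAI2 under all that tested it. CDH2, not called, changed sign with the library size alone (-0.073), with GC and length offsets (-0.11, and -0.11 with the replicate block), without siControl replicate 2 (-0.027) and without siKMT9α replicate 3 (-0.043). Without siControl replicate 1 it passed the test (0.147). With a sample left out, log2 fold changes ran from -0.043 to 0.147 for CDH2, 1.17 to 1.56 for CDH1, 1.12 to 1.32 for FN1, 0.99 to 1.05 for ZEB1, 0.97 to 1.21 for ZEB2 and -0.93 to -0.66 for TWIST1. The members past the study's threshold were 5 in DESeq2, in the likelihood-ratio test and without the filter on low counts (CDH1 and SNAI2 added), 6 with GC and length offsets and the block (VIM added too), and 2 to 4 with a sample left out, where ZEB2 missed it without siControl replicate 2 or siKMT9α replicate 2 and CDH1 passed it without siControl replicate 1. ZEB2 also missed it with the library size alone, with the block and with GC and length offsets, where VIM passed it. Over all genes, 3357 of 13877 passed the threshold in the fit used above. There were 4772 of 13877 in DESeq2, 5962 of 13877 in the likelihood-ratio test and 6070 of 18751 without the filter. With GC and length offsets there were 4300 of 13877, and 5031 of 13877 with the block added. The library size alone gave 3378, the block 2344, and a sample left out 2326 to 4084. Without the filter 7 of the 9 other cadherins were called, beside 11148 of all 18751 genes, against 4 with the filter. Without genes that passed the filter through 1 group, 7 of the 8 EMT genes left and all 3 other cadherins left were called. So were 7 of 8 epithelial junction genes and 4 of 7 other EMT transcription factors. These stand beside 75.6% of all genes tested, from which such genes were not removed. The cause of these moves was not tested.

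Same-numbered samples did not deviate together (correlations of deviations from the group means -0.08, 0.02 and -0.08 for replicates 1 to 3). In the fit with a replicate block, 10229 genes had an edgeR adjusted p under 0.05, against 10492, and 8 of the 9 genes did, SNAI1 at 0.044. No sample correlated best with the sample of its own number in the other group. Depth limits ESRP1 and SNAI2 most, at 2 to 8.5 and 7 to 46.5 counts.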
